A study of Mus musculus with 12 samples.

Results

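A set of 9 complement genes was followed through 12 RNA sequencing libraries of mouse bone marrow-derived macrophages, namely C1qa, C1qb and C1qc, C3, Cfb, Cfp, C3ar1, C5ar1 and Serping1. They were chosen by name as complement components and receptors, and they make up 9 of the 47937 genes in the count table. All 9 had enough reads for a test, out of 11760 genes that did. Macrophages were grown for 7 days with CSF-1 (20 ng/ml) from marrow of C57BL/6 mice of 6 to 8 weeks, a wild-type strain. M0 cells were left resting (n = 3). A second group received IFNγ (50 ng/ml) and LPS (20 ng/ml) for 18 h (n = 3). The other two groups were M0 and IFNγ + LPS cells in the presence of T863 (50 μM), an inhibitor of the triacylglycerol-forming enzyme DGAT1, here DGAT1i (n = 3 each). The labels of the untreated M0 libraries give no time, and for 2 libraries of M0 with DGAT1i 1 label field carries a different compound number while another carries T863. The labels name no mice or cultures behind the libraries of a group, so that p-values measure only the spread between these libraries, which may be technical.

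Complement is a set of plasma and cell-surface proteins that tag microbes and dying cells for uptake. The classical pathway starts when C1q, a bundle of units that each join an A, a B and a C chain, binds antibody or other ligands, and the alternative pathway runs on factor B and is stabilised by properdin. Both cleave C3, whose fragments coat targets and, with the C5 fragment, call in leukocytes through the anaphylatoxin receptors. Most complement proteins in plasma are made in the liver, and macrophages are a main source of C1q and properdin.

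Libraries held between 4996014 and 6621671 reads counted on genes. Levels are given as CPM, the reads of a gene relative to the scaled total of its library, after TMM scaling in edgeR, and 1 CPM stood for 4.29 to 7.59 reads. Between replicates, Pearson's r of log2 CPM was 0.988 to 0.992. All 8 macrophage markers listed were past the filter on low counts, with Adgre1 between 1151 and 2912 CPM over the 12 libraries. Their sum was 13073 to 14330 CPM in M0, 8265 to 8909 in IFNγ + LPS, 16103 to 18135 in M0 with DGAT1i, and 7860 to 8813 in IFNγ + LPS with DGAT1i. The lower sum after IFNγ + LPS was mostly Lyz2, from a mean of 9623 to 2950 CPM, and of the 8 markers 5 fell with the stimulus while Adgre1, Mertk and Fcgr1 rose. A group of 6 genes known to respond to IFNγ or LPS summed to between 32.8 and 49.0 CPM in the libraries without the stimulus and to between 16848 and 20459 CPM in those with it. Reads from mitochondrial genes took 4.72 to 4.86% of M0, 3.88 to 4.21% of IFNγ + LPS, 5.56 to 6.19% of M0 with DGAT1i, and 4.52 to 5.32% of IFNγ + LPS with DGAT1i. In bulk RNA, fewer cells that express a gene and less RNA per cell cannot be told apart.

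IFNγ + LPS raised C3, Cfb and Serping1 and lowered C5ar1, C1qa, C1qc and C3ar1, whereas C1qb and Cfp did not pass the test. Thus 3 of the 9 genes rose and 4 fell at an adjusted p under 0.05 (edgeR's quasi-likelihood test, Benjamini-Hochberg over 11760 genes), against 37.1% of all genes that rose and 36.2% that fell. With DGAT1i in both arms, 3 rose and 5 fell, C1qb being the added one, against 35.3% of all genes in each direction. The median log2 fold change of the 9 genes was -0.01 without DGAT1i and -0.20 with it, and that of all genes tested was 0.01 and -0.01. These splits depend on scaling, and with libraries scaled by size only 2340 genes rose and 6998 fell without DGAT1i and 2335 and 6796 did with it, and 3 of the 9 rose and 6 fell in each case. Setting Cfb and Serping1, whose folds are lower bounds, at those bounds leaves both medians as they are.

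In IFNγ + LPS macrophages, DGAT1i lowered the 3 C1q chains, Cfp, C5ar1 and, by a small margin, C3. This made 6 of 9 genes lower and 0 higher, against 16.3% of all genes lower and 13.5% higher, and their median log2 fold change was -0.36 against -0.01 over all genes tested. In M0, where Cfb and Serping1 had no reads, 3 of the other 7 genes were lower with DGAT1i (Cfp, C5ar1 and C1qa) and 0 were higher, against 13.4% and 11.0% of all genes, with a median of -0.10 against 0.00370. The response to DGAT1i itself differed between IFNγ + LPS and M0 for 3 of 7, the C1q chains, all lower in IFNγ + LPS, against 9.80% of all genes in that direction and 8.66% in the other. DESeq2 on the 12 libraries also called 0 of them higher with DGAT1i, where it called 1243 of the 11760 genes higher in IFNγ + LPS and 825 in M0. At an unadjusted p under 0.05 in edgeR 0 were higher in IFNγ + LPS and 1 was in M0, C3ar1, which passed the adjusted threshold in some alternative fits, and 4626 and 4015 of all genes were under that p in either direction. With libraries scaled by size only, 885 of all genes were higher and 2087 lower with DGAT1i in M0, with 4 of 7 lower, and the difference between the responses was called for 1228 genes above 0 and 889 below, with 2 of 7 below. The comparisons share groups, so they are not independent of each other. Nor need the 3 C1q genes, which are neighbours, be independent results, and the shares over all genes were not matched for level.

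**Figure D1:**
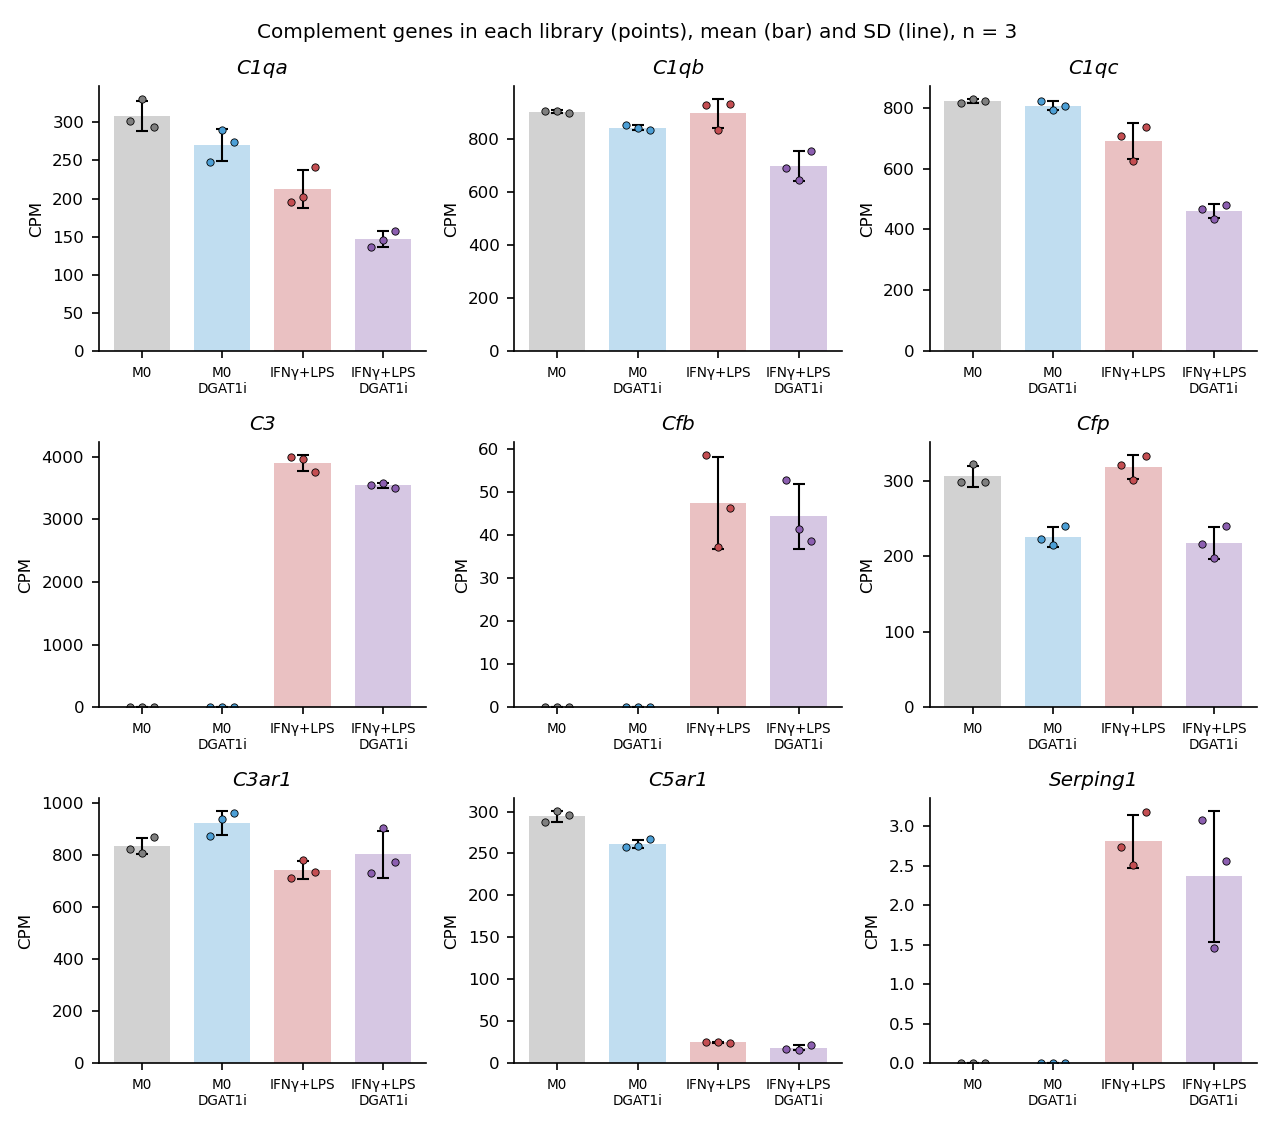
CPM (linear axis from 0) of the 9 complement genes in M0 and IFNγ + LPS macrophages with and without DGAT1i, with a point for each library, bars for the mean and lines for the SD (n = 3). C3, Cfb and Serping1 are at or near 0 in both M0 groups, C5ar1 drops from a mean of 294 to 24.9 CPM with IFNγ + LPS, and Cfp is lower with DGAT1i in both states.

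C1qa, C1qb and C1qc encode the A, B and C chains of C1q. The genes lie side by side on the minus strand of chromosome 4 (GRCm38, GENCODE M21), in the order C1qb (ENSMUSG00000036905.8, 136880129 to 136886187), C1qc (ENSMUSG00000036896.5, 136889804 to 136893065) and C1qa (ENSMUSG00000036887.5, 136895917 to 136898803), within 18.7 kb. Because the B and C chain genes are neighbours whose levels parted in IFNγ + LPS, the sequence upstream of each start is shown (RefSeq, GRCm38.p6, minus strand, 5′ to 3′). Capitals mark the letters of a core for PU.1 (GAGGAA on either strand), a transcription factor of myeloid cells. The C1qb stretch is chr4:136886201-136886450, and that of C1qc, chr4:136893066-136893164, holds only the part upstream of every annotated start.
C1qb: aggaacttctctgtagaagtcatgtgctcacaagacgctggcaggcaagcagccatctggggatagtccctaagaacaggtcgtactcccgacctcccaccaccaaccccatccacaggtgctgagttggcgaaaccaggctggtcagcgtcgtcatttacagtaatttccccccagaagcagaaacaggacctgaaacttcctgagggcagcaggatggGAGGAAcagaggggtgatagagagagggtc
C1qc: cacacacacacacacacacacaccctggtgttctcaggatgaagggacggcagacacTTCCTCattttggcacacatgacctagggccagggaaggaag
Windows of 250 bases before the RefSeq start were found for 6 of the 9 genes (C1qb, C1qc, C3, C3ar1, C5ar1 and Cfp). Of these bases, 151 in C1qc, 202 in C5ar1 and 4 in C3ar1 lay within the annotated gene, past its first start. Counted from the RefSeq start, the PU.1 letters lay 30 to 25 bases upstream in C1qb. In C1qc they lay on the opposite strand, 193 to 188 bases upstream, a distance that includes 151 bases within the annotated gene. They were in none of the other 4 windows. Of 32851 such windows of mouse genes, 23.25% held them, so a match is common and is no evidence of binding.

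C1qb was counted at 906, 903 and 898 CPM in the 3 M0 libraries and at 925, 834 and 930 CPM after IFNγ + LPS. The groups overlapped, and the log2 fold change of -0.01 had a 95% interval from -0.12 to 0.10. With DGAT1i, C1qb stood at 690, 644 and 756 CPM in IFNγ + LPS, below all 3 libraries without the inhibitor. The log2 fold change was -0.36 (standard error 0.05, edgeR adjusted p = 2.22e-07). In M0 it stood at 851, 839 and 832 CPM with DGAT1i, also below the 3 libraries without it, but the log2 fold change, -0.10 (standard error 0.05, edgeR adjusted p = 0.163), did not pass the test. As a result C1qb fell with IFNγ + LPS when DGAT1i was present in both arms, by 0.27 on the log2 scale (standard error 0.05, edgeR adjusted p = 1.11e-05).

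C1qc was counted at 815, 830 and 820 CPM in M0 and at 707, 624 and 738 CPM after IFNγ + LPS. Each stimulated library was below each M0 library, and the log2 fold change was -0.25 (standard error 0.05, edgeR adjusted p = 2.89e-05). With DGAT1i, the IFNγ + LPS libraries stood at 466, 434 and 480 CPM, or 0.667 times the level without it (log2 fold change -0.59, standard error 0.05, edgeR adjusted p = 5.13e-13). The resting cells did not show this drop, at 821, 791 and 806 CPM with DGAT1i, where the log2 fold change of -0.03 had a 95% interval from -0.13 to 0.08. C1qc had the largest difference between the DGAT1i responses among the 7 genes with a value, at -0.56 on the log2 scale (standard error 0.08, edgeR adjusted p = 9.50e-08), and it passed under every alternative run.

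C1qa was the lowest of the 3 chains, at 301, 331 and 293 CPM in M0. It fell to 196, 201 and 241 CPM with IFNγ + LPS (log2 fold change -0.54, standard error 0.07, edgeR adjusted p = 1.72e-07), and to 137, 146 and 158 CPM with DGAT1i added. The drop with DGAT1i in stimulated cells was 0.688 times (log2 fold change -0.54, standard error 0.08, edgeR adjusted p = 4.02e-06). In M0, DGAT1i gave 248, 290 and 274 CPM, just below the libraries without it, and the log2 fold change was -0.19 (standard error 0.07, edgeR adjusted p = 0.0426). This last call was lost when 1 of 5 libraries was left out, namely replicates 1 or 2 of M0 (-0.21 and -0.14), replicates 1 or 3 of M0 with DGAT1i (-0.13 and -0.20) and replicate 2 of IFNγ + LPS with DGAT1i (-0.19).

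The difference between the DGAT1i responses was -0.35 for C1qa (standard error 0.10, edgeR adjusted p = 0.0173) and -0.26 for C1qb (standard error 0.08, edgeR adjusted p = 0.00881). Both calls were less firm than that of C1qc. C1qa lost it without replicate 1 of IFNγ + LPS with DGAT1i (-0.30) and with libraries scaled by size only (-0.30), and C1qb lost it without replicate 2 of the same group (-0.21).

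Ratios between the chains within a library do not depend on how libraries are scaled. The log2 ratio of C1qc to C1qb reads was -0.14 ± 0.02 (SD, n = 3) in M0, -0.38 ± 0.04 (SD, n = 3) in IFNγ + LPS, -0.06 ± 0.02 (SD, n = 3) in M0 with DGAT1i and -0.60 ± 0.05 (SD, n = 3) in IFNγ + LPS with DGAT1i. No group overlapped another. C1qa to C1qb also moved with IFNγ + LPS, from -1.55 ± 0.09 to -2.08 ± 0.15 (SD, n = 3 each), but the groups with and without DGAT1i overlapped in both states. Over 12 such comparisons, a two-sided exact permutation test of 3 against 3 libraries cannot go below p = 0.1, the value it gave for each pair of groups that did not overlap (0.171 after Benjamini-Hochberg adjustment).

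**Figure D2:**
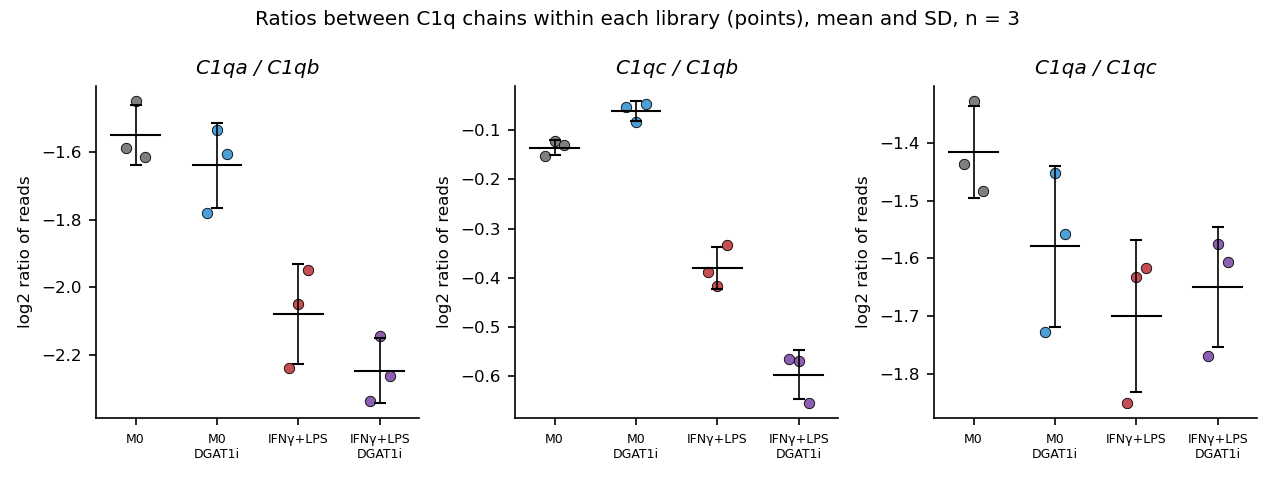
Log2 ratios of read counts between the C1q chains in each library (points), with the group mean and SD (n = 3). The C1qc to C1qb ratio separates all 4 groups, from -0.06 in M0 with DGAT1i to -0.60 in IFNγ + LPS with DGAT1i, whereas C1qa to C1qc overlaps between the groups with and without DGAT1i.

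C3, the central component on which the complement pathways converge (ENSMUSG00000024164.15, chromosome 17 from 57203970 to 57228136), showed the largest rise among the 7 of these genes with reads in M0. It had 4.79, 4.79 and 3.89 CPM in M0, or 97 reads over 3 libraries, and 3994, 3963 and 3756 CPM after IFNγ + LPS. The change was 866-fold (log2 fold change 9.76, standard error 0.09, edgeR adjusted p = 2.99e-61). With DGAT1i in both arms it was 687-fold, from 4.38, 5.10 and 5.93 CPM to 3548, 3578 and 3501 CPM. The stimulated libraries with DGAT1i were all below those without it, but the log2 fold change was only -0.14 (standard error 0.05, edgeR adjusted p = 0.0309, 0.00995 to 0.0976 over the alternatives). That call was lost without replicate 1 (-0.13) or replicate 2 (-0.13) of IFNγ + LPS, or without replicate 3 of IFNγ + LPS with DGAT1i (-0.14). In M0 the effect of DGAT1i was 0.19 on the log2 scale, with a 95% interval from -0.13 to 0.52 and no call.

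Because of this fold change, C3 is shown with the 250 bases before its start (RefSeq, GRCm38.p6, chr17:57228137-57228386, minus strand, 5′ to 3′).
C3: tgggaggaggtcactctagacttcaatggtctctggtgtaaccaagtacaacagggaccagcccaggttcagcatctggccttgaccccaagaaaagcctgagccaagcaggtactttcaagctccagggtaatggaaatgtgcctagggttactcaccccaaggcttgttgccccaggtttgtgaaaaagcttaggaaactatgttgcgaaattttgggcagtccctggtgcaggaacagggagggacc
This window held none of 2 letter patterns searched on both strands, those of an interferon-stimulated response element core and of an NF-κB site. None of the other 5 windows held them either. Over all 32851 windows the shares with a match were 2.98% and 1.21%, and the absence of these letters from 250 bases says nothing of the factors.

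Cfb and Cfp belong to the alternative pathway. Cfb encodes factor B, the protease of the C3 convertase (ENSMUSG00000090231.10, chromosome 17 from 34856374 to 34862518). It had 0 reads in all 6 libraries without IFNγ + LPS, which allows up to 0.139 CPM in M0 and 0.135 CPM in M0 with DGAT1i (3 reads over a group, counting error only). After IFNγ + LPS it stood at 58.6, 37.2 and 46.4 CPM, at least 337-fold higher than M0 (edgeR adjusted p = 1.95e-07), and with DGAT1i at 52.8, 41.4 and 38.7 CPM, at least 330-fold higher than M0 with DGAT1i. The stimulated groups overlapped, and the log2 fold change with DGAT1i was -0.08 with a wide 95% interval, from -0.50 to 0.33. The annotated readthrough gene Gm20547 shares 79.5% of the exon bases of Cfb and had 0 reads, so how the counting divided shared reads was not seen.

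Cfp encodes properdin, the stabiliser of that convertase (ENSMUSG00000001128.7, X chromosome from 20925454 to 20931555), and showed the largest drop with DGAT1i in M0 of the 7 genes with reads there, and a similar one in IFNγ + LPS. M0 libraries had 299, 322 and 298 CPM without DGAT1i and 224, 215 and 241 CPM with it (log2 fold change -0.44, standard error 0.06, edgeR adjusted p = 2.17e-08). IFNγ + LPS libraries had 321, 301 and 334 CPM without DGAT1i and 217, 198 and 240 CPM with it (log2 fold change -0.55, standard error 0.06, edgeR adjusted p = 1.69e-10). No library with DGAT1i reached any library of the same state without it. The difference between both drops was -0.11 (standard error 0.08, 95% interval -0.28 to 0.06, edgeR adjusted p = 0.391). IFNγ + LPS itself left Cfp with a log2 fold change of 0.06 (95% interval -0.06 to 0.17), or -0.05 (-0.18 to 0.07) with DGAT1i, and no call in either. With libraries scaled by size only the first of these turned to -0.41, along with a median of -0.46 for all genes tested.

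C3ar1 and C5ar1 encode the receptors for the anaphylatoxins C3a and C5a, and they differed in their response to the stimulus. C5ar1 (ENSMUSG00000049130.5, chromosome 7 from 16246743 to 16259540) had 287, 300 and 296 CPM in M0 and 25.2, 25.3 and 24.1 CPM after IFNγ + LPS, an 11.8-fold drop (log2 fold change -3.56, standard error 0.07, edgeR adjusted p = 1.75e-44). DGAT1i lowered it further in stimulated cells, to 17.5, 15.8 and 21.7 CPM (log2 fold change -0.45, standard error 0.11, edgeR adjusted p = 0.00118), the groups resting on 390 and 254 reads. A smaller drop was seen in M0, to 258, 259 and 267 CPM (log2 fold change -0.17, standard error 0.05, edgeR adjusted p = 0.00966). No library with DGAT1i overlapped those without it in either state. The difference between these drops, -0.28 (standard error 0.12, edgeR adjusted p = 0.108, 0.0229 to 0.374 over the alternatives), did not pass the test, except without replicate 3 of IFNγ + LPS with DGAT1i (-0.41).

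C3ar1 (ENSMUSG00000040552.8, chromosome 6 from 122847138 to 122856161) stayed high throughout, at 825, 810 and 871 CPM in M0 and 712, 781 and 734 CPM after IFNγ + LPS. The fall was small (log2 fold change -0.17, standard error 0.06, edgeR adjusted p = 0.00885), and it lost the call without replicate 3 of M0 (-0.14) or replicate 1 of IFNγ + LPS (-0.14). With DGAT1i in both arms it was -0.20 (standard error 0.06, edgeR adjusted p = 0.00201), and there the groups overlapped. C3ar1 was the only one of the 7 genes with a value in both states whose log2 fold change for DGAT1i was positive in each, although neither passed. In M0 it stood at 873, 941 and 962 CPM with DGAT1i, all above the libraries without it (log2 fold change 0.15, standard error 0.06, edgeR adjusted p = 0.0566, 0.0118 to 0.264 over the alternatives). This value passed the threshold when only the M0 libraries were fitted (0.15), and without replicate 3 of M0 (0.18), replicate 1 of M0 with DGAT1i (0.19), or replicates 1 or 2 of IFNγ + LPS with DGAT1i (0.15 each). In IFNγ + LPS the libraries with DGAT1i ranged from 732 to 905 CPM and overlapped those without it (log2 fold change 0.11, 95% interval -0.0050 to 0.23), and leaving out replicate 1 of the libraries with DGAT1i raised the value to 0.18, past the threshold, whereas leaving out replicate 2 of them lowered it to 0.014.

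Serping1 encodes C1 inhibitor, which shuts off the C1r and C1s proteases (ENSMUSG00000023224.12, chromosome 2 from 84765387 to 84775444). It was the lowest of the 9 genes in the stimulated cells. No reads were counted in the 6 libraries without IFNγ + LPS, and 13, 14 and 17 reads were counted after it, or 2.73, 2.52 and 3.18 CPM. This was at least 20.2-fold higher than M0 (edgeR adjusted p = 6.22e-10). With DGAT1i the stimulated libraries held 15, 7 and 11 reads, at least 17.5-fold over M0 with DGAT1i. They overlapped those without DGAT1i. The log2 fold change of -0.25 had a 95% interval from -0.99 to 0.50, so no effect of DGAT1i was called and its size stays uncertain.

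**Figure D3:**
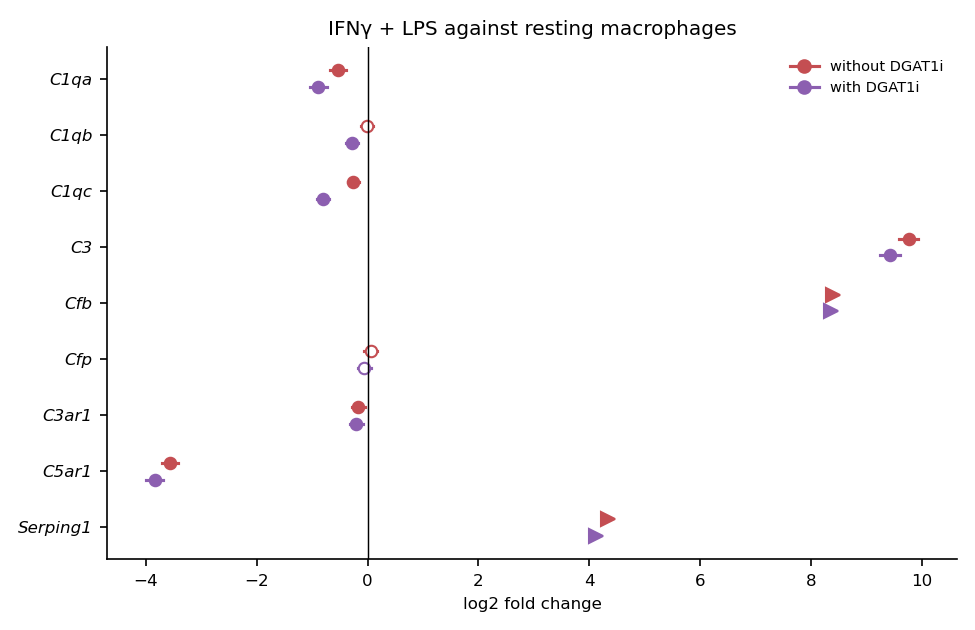
Log2 fold changes of the 9 genes for IFNγ + LPS against M0, without DGAT1i (red) and with DGAT1i in both arms (purple). Points are estimates and lines 95% intervals, filled points have an adjusted p under 0.05, and triangles are lower bounds for genes with 0 reads in M0. C3 lies at 9.76 and 9.42, C5ar1 at -3.56 and -3.84, and the remaining genes without a bound lie between -0.88 and 0.06.

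**Figure D4:**
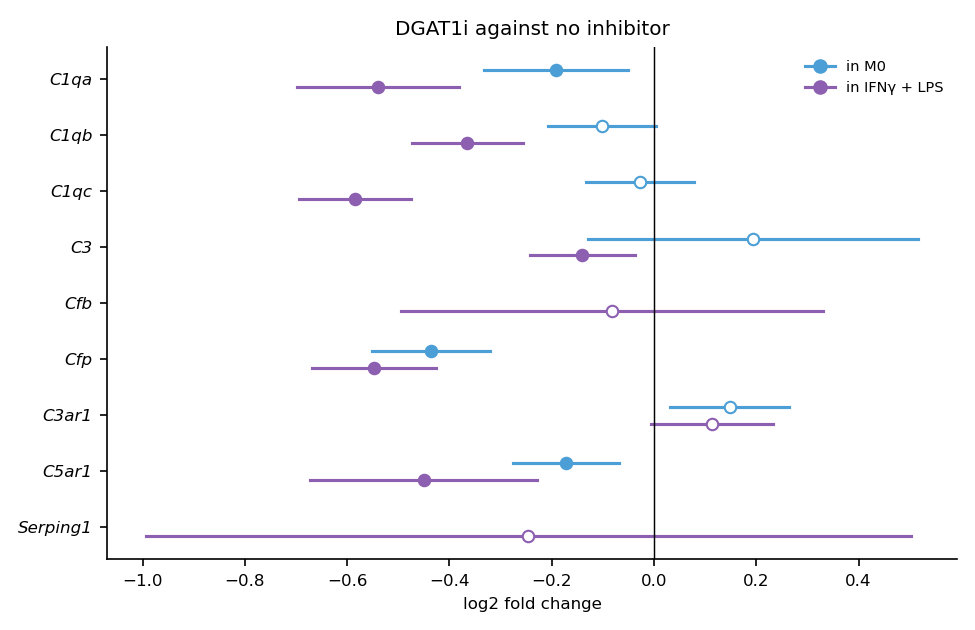
Log2 fold changes for DGAT1i against no inhibitor in M0 (blue) and IFNγ + LPS (purple), with 95% intervals and filled points for an adjusted p under 0.05. No value is drawn in M0 for Cfb and Serping1, which had 0 reads there. The C1q chains lie further below 0 in IFNγ + LPS than in M0, Cfp lies at -0.44 and -0.55, and C3ar1 lies above 0 in both.

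Levels were compared between genes per kb of exon. In M0, the order was C1qb (830 ± 3.77 CPM per kb, SD, n = 3), C1qc (426 ± 3.73), C1qa (297 ± 18.9), C3ar1 (194 ± 7.49), Cfp (176 ± 7.87), C5ar1 (115 ± 2.62) and C3 (0.873 ± 0.10). No neighbours in this order overlapped. After IFNγ + LPS, C3 (759 ± 25.1 CPM per kb) came next after C1qb (824 ± 49.9), and libraries of both genes overlapped. C1qc (357 ± 30.4), C1qa (205 ± 23.5), Cfp (184 ± 9.38) and C3ar1 (172 ± 8.12) followed, and of these C1qa and Cfp, and Cfp and C3ar1, overlapped. Cfb (16.8 ± 3.81), C5ar1 (9.69 ± 0.263) and Serping1 (1.21 ± 0.145) closed the order. The value of Cfb is taken over all its exon bases, of which Gm20547 shares 79.5%, so it depends on how shared reads were counted. With DGAT1i in stimulated cells, C3 (689 ± 7.58 CPM per kb) had the highest mean, above C1qb (640 ± 51.6), again with overlap between libraries.

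Other genes of the system were taken from a list of 47, of which 15 had enough reads for a test and 13 had no reads in any library. Among those without reads were Cfd (factor D), Cfi (factor I), the terminal components C6, C8a and C8b, and Cr2 (complement receptor 2). Hc, which encodes C5, had 2 reads in the 12 libraries. IFNγ + LPS raised 5 of the 15, lowered 8 and left 2 without a call, against 37.1% and 36.2% of all genes. These counts were the same when DGAT1i was present in both arms, against 35.3% of all genes in each direction, but there the call of Cd46 was lost without replicate 1 of M0 with DGAT1i (1.05) or replicate 1 of the stimulated group (1.19), and when libraries were scaled by size only (0.97). Scaling by size only also gave Fcna (-0.77) and Cr1l (-0.46) a call as falls in that comparison, beside a median of -0.43 for all genes tested.

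Of the early classical pathway, the protease gene C1ra rose from 2.18 ± 0.250 to 25.8 ± 0.505 CPM (SD, n = 3; log2 fold change 3.55, edgeR adjusted p = 3.76e-25). C1s1, the partner protease, had 1 read over M0 and 39 over IFNγ + LPS, a ratio of 53.8 with an exact 95% counting interval from 9.10 to 2178. C4b, encoding C4, went from 5 reads over M0 to 10.9, 7.37 and 8.60 CPM (log2 fold change 5.15, standard error 0.41, edgeR adjusted p = 5.20e-17). These 3 genes have near-identical copies (C1rb, C1s2 and C4a), so their counts are uncertain. The membrane regulator Cd46 (log2 fold change 2.00, 10 reads in M0 and 30 after) and Itgb2, the β chain of complement receptors 3 and 4, also rose, the latter from 713 to 1721 CPM (log2 fold change 1.27). Genes that fell included the C5a receptor C5ar2 (-2.71), the regulator Cd59a (-1.97), the surface receptor Cd93 (-4.28), Lrp1 (-1.99), C1qbp (-1.11) and Calr (-0.65). Itgam (-0.30) and Itgax (-0.36), the α chains of receptors 3 and 4, fell less, and Itgam is also among the macrophage markers. Fcna (-0.39) and Cr1l (0.15) did not pass. Fcna did so as a fall with libraries scaled by size only (-0.85) and without replicate 3 of IFNγ + LPS (-0.53). Cr1l passed as a rise when replicate 3 of M0 (0.19), replicate 3 of IFNγ + LPS (0.21) or, among the stimulated libraries with DGAT1i, replicate 1 (0.15) was left out, and as a fall with libraries scaled by size only (-0.32).

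In IFNγ + LPS, DGAT1i lowered 5 of the 15 and raised 1, against 16.3% and 13.5% of all genes. C4b fell from 10.9, 7.37 and 8.60 CPM to 2.26, 2.29 and 1.86 CPM, or from 139 to 30 reads (log2 fold change -2.04, standard error 0.29, edgeR adjusted p = 1.07e-07), the largest drop among the complement genes tested. Itgam fell from 117, 137 and 135 CPM to 84.9, 88.1 and 82.7 CPM (log2 fold change -0.60, standard error 0.07, edgeR adjusted p = 1.00e-10), and Itgax by 0.43 on the log2 scale. Itgam shares 68.7% of its exon bases with the annotated gene Gm49368, which had 27 reads. C1qbp (-0.49) and Cr1l (-0.21) also fell. The call of Cr1l was lost without replicates 1 (-0.19) or 2 (-0.18) of IFNγ + LPS, without replicates 2 (-0.19) or 3 (-0.15) of the group with DGAT1i, in DESeq2 (-0.21) and with only these libraries fitted (-0.19). Cd93 rose from 40.6, 42.6 and 46.7 CPM to 55.5, 55.6 and 67.8 CPM (log2 fold change 0.46, standard error 0.08, edgeR adjusted p = 9.22e-06). C1s1, with 39 reads without DGAT1i and 60 with it, did not pass (0.79), but it passed as a rise with only these libraries fitted (0.80).

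In M0, DGAT1i raised Itgb2 (log2 fold change 0.23, standard error 0.05, edgeR adjusted p = 0.000330). The other 13 of the 14 genes with a value did not pass, beside 11.0% of all genes higher and 13.4% lower. The responses to DGAT1i differed between the states for Itgam (-0.68, edgeR adjusted p = 2.74e-08) and Itgb2 (-0.24, edgeR adjusted p = 0.0124), lower in IFNγ + LPS, and for Cd93 (0.47, edgeR adjusted p = 0.000196), higher there, against 9.80% of all genes lower and 8.66% higher. Itgax, at -0.31, did not pass, but it did without replicate 3 of IFNγ + LPS (-0.42), replicate 3 of M0 with DGAT1i (-0.40) or the filter on low counts (-0.35). C1qbp, at -0.38, did so without replicate 1 of IFNγ + LPS with DGAT1i (-0.49).

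**Figure D5:**
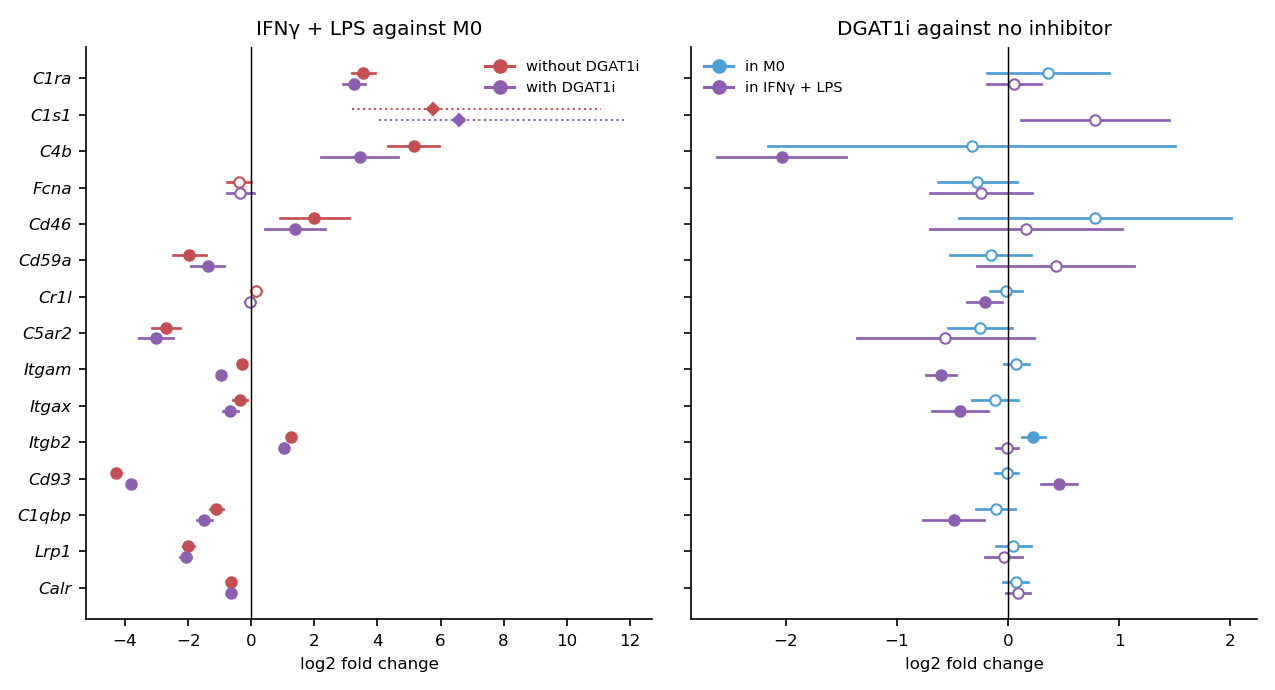
Log2 fold changes of the 15 other complement genes with enough reads, for IFNγ + LPS against M0 (left) and for DGAT1i against no inhibitor (right), with 95% intervals and filled points for an adjusted p under 0.05. Diamonds with dotted lines are ratios of reads with counting intervals for C1s1, which had 1 read in each M0 group. Cd93 lies furthest below 0 on the left, at -4.28 and -3.81, and C4b on the right, at -2.04 in IFNγ + LPS.

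Markers of other cell types were low beside those of macrophages. B cell, T cell, mast cell and stromal markers stayed under the filter on low counts, with sums of at most 2.10 CPM. Of 8 neutrophil markers, 4 were past the filter, and their sum was 31.5 to 38.6 CPM in M0, 15.1 to 25.4 in IFNγ + LPS, 22.8 to 29.0 in M0 with DGAT1i and 62.9 to 80.9 in IFNγ + LPS with DGAT1i. Ly6g, the defining neutrophil marker, had 0 reads in all 12 libraries and Elane had 0 in 9. All 4 that were past the filter rose with DGAT1i in IFNγ + LPS, S100a8 from a mean of 9.12 to 34.5 CPM, S100a9 from 7.76 to 25.8, Ngp from 1.35 to 9.17 and Ltf from 0.930 to 4.32 CPM. In stimulated cells the neutrophil sum thus rose with DGAT1i while Cfp, C5ar1 and Itgam, genes that neutrophils also express, fell, and its part in those results was not tested. Of 5 dendritic cell markers, 1 was past the filter, and their sum reached at most 6.11 CPM, in IFNγ + LPS.

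Likeness to other genes was described by Pearson's r of log2 CPM over the 12 libraries, among 10146 genes whose average log2 CPM reached 2. Libraries of a group share treatment, so these values carry no p. C3 was most like Ifi209, an interferon-inducible gene (r = 0.9995), Cfb most like Il12b (r = 0.9993), Serping1 like Rit1 (r = 0.9944) and C5ar1 like Srebf2, a regulator of sterol synthesis (r = 0.998). The C1q chains had different partners, namely Frmd4b for C1qa (r = 0.9875), Nlrp1b for C1qb (r = 0.942) and Cluh for C1qc (r = 0.9857). Cfp was most like Arpc1b (r = 0.9534) and C3ar1 like Pja2 (r = 0.9598).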

How the data were processed

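RNA from mouse bone marrow-derived macrophages was sequenced in 4 groups of 3 libraries, grouped by the deposited labels. The authors deposited raw read counts per gene, without normalization. Their processing notes name the GRCm38 build and DESeq2. The aligner, counter and annotation release were not given in the sources used here. The labels name a NEBNext kit and the methods a stranded TruSeq kit, so whether counting used strand was not seen. Of 47937 identifiers, 47310 matched GENCODE M21 when versions were ignored, and the 627 rows without a gene name held 0.0932 to 0.142% of reads.

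The analysis ran in edgeR 4.0.16 under R 4.3.3. Genes were filtered by filterByExpr, libraries scaled by TMM, and 1 mean per group fitted to all 12 libraries by glmQLFit (robust). Adjusted p-values (Benjamini-Hochberg over 11760 genes) from the quasi-likelihood test under 0.05 were called, in 5 contrasts. The method was tested on simulated counts in which few genes changed, equally in both directions. That test therefore does not cover the differences in scaling between these groups. A fold against a group with 0 reads is a lower bound, set at 3 reads over the group. Depth was 4996014 to 6621671 reads, so genes under 1 CPM rest on a few reads, and limits and intervals from reads cover counting error only. DESeq2 1.42.0, other scalings (DESeq2's size factors, library size only), other filters on low counts (none, or a mean CPM of at least 1), a looser threshold (0.1), fits restricted to the libraries compared, a block for the replicate number, and omission of single libraries were the alternatives. BLAST 2.17.0 served to find gene copies, with limits of 95% for identity and 20% for the length of transcript covered.

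The genes named are the 9 complement genes in every contrast, genes of a list of 47 other complement genes past the threshold, marker lists, and for each of the 9 the gene most like it over the libraries. Members, lists and tests were chosen with earlier results of these data known. Promoter sequences are from RefSeq (GRCm38.p6). Protein sequences were not used here. An item of the lists and a motif are not reported here.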

Additional observations from a re-analysis of the deposited data

Results flagged for a closer look

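The following results were marked because the response to DGAT1i differed between IFNγ + LPS and M0 by the test of the difference itself (edgeR's quasi-likelihood test, Benjamini-Hochberg over 11760 genes). All are log2 values, the response in IFNγ + LPS minus that in M0. The C1q chains gave -0.3489 for C1qa, -0.2625 for C1qb and -0.5574 for C1qc, each lower with DGAT1i in the stimulated cells by more than in M0. Of the receptors, Itgam gave -0.6755 and Itgb2 gave -0.2361, Itgam falling with DGAT1i in IFNγ + LPS and Itgb2 rising with it in M0. Cd93 gave 0.4683, as it rose with DGAT1i in IFNγ + LPS and had a log2 fold change of -0.01 in M0.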

How the results depend on the processing

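The numbers of genes called among the 9 in each comparison stayed within 1.5 times their main values under all alternatives run. Of single values, scaling by library size only moved the change with IFNγ + LPS of Cfp to -0.41 and of Cr1l to -0.32, from 0.06 and 0.15, beside a median of -0.46 for all genes tested. It also gave C1qb a call in that comparison (-0.48) and in M0 with DGAT1i (-0.16), and Cfp one for IFNγ + LPS with DGAT1i in both arms (-0.47). Relative to the shift of all genes, C1qb and Cfp stayed near 0 with the stimulus. DESeq2, its size factors and both other filters left the call of all 37 values of the 9 genes as it was. With single libraries left out, 426 values kept their call, 12 lost one and 6 gained one. The 18 pairs of libraries with the same replicate number had correlations between -0.022 and 0.069, none over 0.1, so the numbers were not taken as pairing. Pairs of different number had correlations between -0.058 and 0.038, and values this small cannot exclude a pairing. With the replicate block, 36 of the 37 values kept their call and C3ar1 in M0 with DGAT1i gained one (0.15), as did Itgax in the contrast of both DGAT1i effects (-0.32), and the number of all genes called for DGAT1i in IFNγ + LPS went from 1589 higher and 1916 lower to 1626 and 1943. Depth limits Serping1, C1s1, C4b and Cd46, which had few or no reads in M0.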
